A study of Mus musculus with 2 samples.

Results

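The genes described here are 10 genes of the lysosomal protease system, taken as a fixed list of symbols: progranulin (Grn), prosaposin (Psap), sortilin (Sort1), the cysteine cathepsins Ctsb, Ctsl, Ctss and Ctsk, the aspartic protease cathepsin D (Ctsd), legumain (Lgmn) and cystatin C (Cst3). All 10 were found by symbol among the 32285 gene identifiers of the count tables. The data are single-cell RNA sequencing of living mononuclear cells from mouse plantaris, a calf muscle. In 5 male C57BL/6 mice, 12 weeks old, the plantaris of one side underwent tenotomy, and the opposite plantaris of the same mice was the sham control. The muscles were taken on day 4, pooled by side, digested with collagenase and sorted for Calcein AM staining without propidium iodide. Each side gave 1 library of 3-prime transcript counts. Which tendon was divided is not stated in the labels, and whole muscle fibres are largely lost in such a digest. Neither side has a replicate library: treatment and library cannot be told apart, no test across samples was possible, and every bracketed range is an exact 95% interval that covers counting error only.

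Progranulin is a secreted glycoprotein that reaches lysosomes through sortilin or together with prosaposin, and cathepsins cut it there into granulins. Prosaposin is cut in the same compartment, in large part by cathepsin D, into saposins, the small proteins that help hydrolases act on sphingolipids. Cathepsins B, L, S and K are cysteine proteases made as inactive precursors. Legumain cuts after asparagine and trims several of these cathepsins, and cystatin C is the secreted inhibitor that blocks cysteine cathepsins and legumain outside the cell. Phagocytes that clear debris in injured muscle are rich in these proteins, while cathepsin K is best known as the collagen-cutting protease of osteoclasts and is also made by fibroblasts.

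After filtering, 10917 tenotomy and 7548 sham cells remained, with medians of 5859 and 4851 unique molecular identifiers (UMIs, counted transcripts) per cell, and 29 barcodes occurred in the kept cells of both libraries. Cells were clustered without the 10 genes, and cell classes, written with "-like", were named from marker genes. C1qa, for instance, was found in 83.3% of the monocyte/macrophage-like cells and in 20.9% of all other cells. Monocyte/macrophage-like cells numbered 4198 in the tenotomy library and 260 in the sham library, mesenchymal progenitor-like cells 1730 and 2137, and blood endothelial cell-like cells 1518 and 3271. Levels are UMIs of a gene per 1000000 UMIs of a class (CPM), without scaling by transcript length. How completely each gene was captured was not measured, so comparisons between genes are of counted transcripts only. A gene counted as measured in a class with at least 50 CPM and 25 UMIs in the library where it was higher, and "at least 2-fold" describes the size of a difference, not a test. Immediate early and heat shock genes, which respond to cell isolation, stood apart between the libraries. In tenotomy monocyte/macrophage-like cells 7 of 8 were at least 2-fold lower, beside 7.88% of all measured genes. Hspa1a had 954 CPM there against 7546 CPM in sham. In mesenchymal progenitor-like cells 7 of 8 were at least 2-fold lower, beside 16.2%, and 1 was at least 2-fold higher, beside 16.0%. In muscle stem cell-like cells 8 of 8 were at least 2-fold lower, beside 17.2%. Over the 8 classes compared, myofibre-like cells left out, 45 of 64 gene values were at least 2-fold lower and 1 higher. The part of these genes in the results below was not tested.

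**Figure D1:**
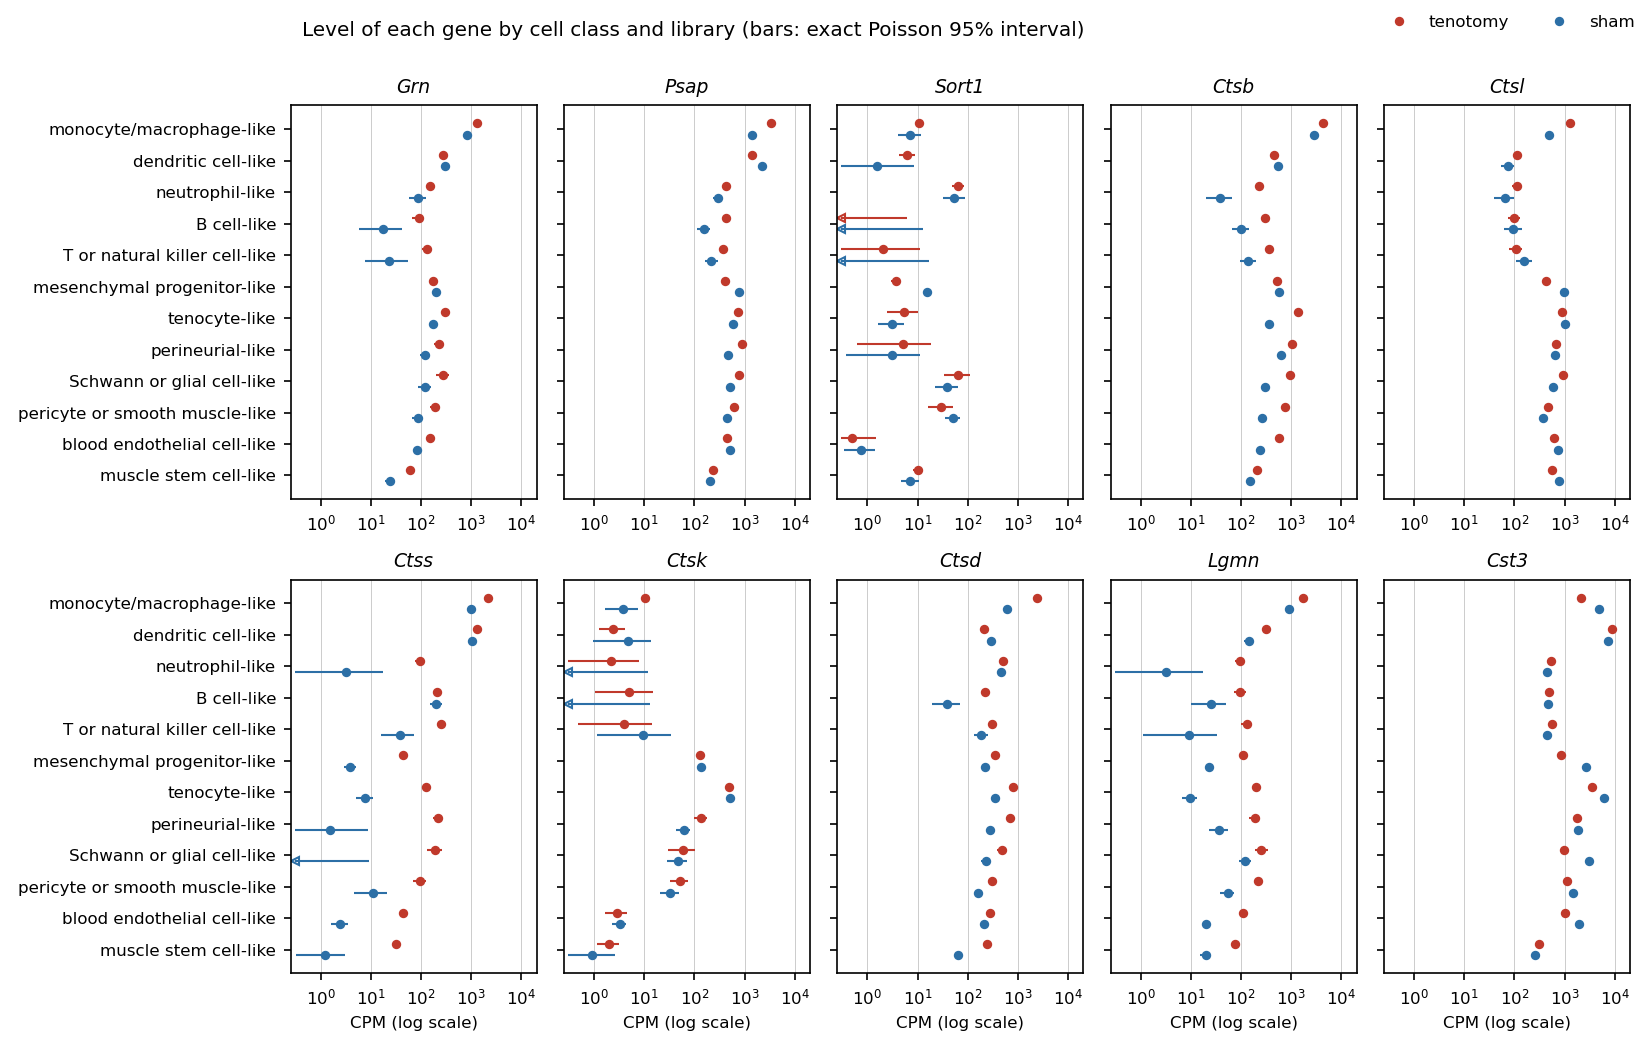
CPM of each gene (horizontal log axis) in 12 cell classes, tenotomy above sham, with exact Poisson 95% intervals; open triangles mark classes with no count. In tenotomy 7 of the 10 genes are highest in monocyte/macrophage-like cells, while Ctsk peaks in tenocyte-like cells (491 CPM in tenotomy and 505 CPM in sham) and Cst3 in dendritic cell-like cells (8684 and 7468 CPM).

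In monocyte/macrophage-like cells, transcripts of the proteases and of the granulin and saposin precursors were higher in the tenotomy library, and transcripts of their inhibitor cystatin C were lower. Of the 10 genes 8 were measured. Ctsd, Ctsl, Psap and Ctss were at least 2-fold higher, beside 6.98% of all 3238 measured genes, and Cst3 was at least 2-fold lower, beside 7.88%. The median log2 difference of the 8 genes was 1.07, beside 0.09 over all measured genes. All 7 genes other than Cst3 were higher in tenotomy with intervals above 1.

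The precursors of granulins and saposins were both higher in tenotomy. Psap had 3314 CPM (3293 to 3335) in tenotomy and 1391 CPM (1341 to 1443) in sham, 2.38-fold higher (2.30 to 2.47). Grn had 1314 CPM in tenotomy and 824 CPM in sham, 1.59-fold higher (1.52 to 1.67). Neither pair of intervals overlapped. Sort1, the receptor that takes up progranulin, was scarce in these cells, with 304 UMIs (10.7 CPM) in tenotomy and 15 UMIs (7.16 CPM) in sham. Its fold had an interval from 0.893 to 2.71, so no difference was detectable at this depth.

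Among the cysteine cathepsins, Ctsb was the most abundant, with 4328 CPM (4304 to 4352) in tenotomy and 2807 CPM (2736 to 2880) in sham, 1.54-fold higher. Ctsl, a broad endopeptidase, had 1306 CPM in tenotomy and 485 CPM in sham, 2.69-fold higher (2.53 to 2.87). Ctss, which trims the invariant chain in antigen presentation, had 2200 CPM in tenotomy and 967 CPM in sham, 2.28-fold higher (2.18 to 2.38). The balance within the group therefore differed: of the summed UMIs of the 4 cysteine cathepsins, Ctsb made up 55.2% in tenotomy and 65.8% in sham, Ctsl 16.6% and 11.4%, and Ctss 28.1% and 22.7%. Ctsk was near absent, at 10.2 CPM in tenotomy and 3.82 CPM in sham.

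Ctsd showed the largest difference of the 10 genes in this class. It had 2444 CPM (2426 to 2462) in tenotomy and 592 CPM (560 to 626) in sham, 4.13-fold higher (3.90 to 4.37). When each cell was thinned to 1000 UMIs, 73.3% of the tenotomy cells and 43.1% of the sham cells still held a Ctsd transcript, and the median depth before thinning was 6190.5 UMIs in tenotomy and 7429.5 UMIs in sham. Before thinning those shares were 96.9% and 91.9%. In muscle stem cell-like cells, thinned in the same way, the shares were 16.1% in tenotomy and 4.79% in sham, from median depths of 14598 and 5976 UMIs. Lgmn had 1726 CPM in tenotomy and 897 CPM in sham, 1.92-fold higher (1.84 to 2.02). Cst3 ran the other way, with 2124 CPM (2107 to 2141) in tenotomy and 4749 CPM (4656 to 4843) in sham, a fold of 0.447 (0.438 to 0.457).

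Ctsd and Ctsl, which had the largest folds among the proteases, lie on chromosome 7 (142375911 to 142388038, minus strand) and chromosome 13 (64359337 to 64370890, minus strand) of the mouse assembly GRCm38, the same assembly as mm10. Promoter windows of RefSeq, from 250 bases before to 50 after a start site, were at hand for 8 of the 10 genes and not for Ctsb and Sort1. They were searched on both strands for the E-box CACGTG, which transcription factors of the TFEB and USF families bind. The Ctsd window holds 2 matches, starting 245 and 98 bases before the start site; the second lies within the longer form TCACGTGA. The Ctsl window holds 1, starting 236 bases before it. The Ctsd and Ctsl windows are shown 5′ to 3′ on the minus strand, with the E-boxes in capitals.
Ctsd, chr7:142387778-142388077: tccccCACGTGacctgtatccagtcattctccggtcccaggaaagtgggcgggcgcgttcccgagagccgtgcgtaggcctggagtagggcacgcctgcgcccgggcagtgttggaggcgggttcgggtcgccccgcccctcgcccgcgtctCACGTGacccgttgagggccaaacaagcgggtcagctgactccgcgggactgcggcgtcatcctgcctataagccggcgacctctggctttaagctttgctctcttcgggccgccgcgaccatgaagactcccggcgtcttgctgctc
Ctsl, chr13:64370471-64370770: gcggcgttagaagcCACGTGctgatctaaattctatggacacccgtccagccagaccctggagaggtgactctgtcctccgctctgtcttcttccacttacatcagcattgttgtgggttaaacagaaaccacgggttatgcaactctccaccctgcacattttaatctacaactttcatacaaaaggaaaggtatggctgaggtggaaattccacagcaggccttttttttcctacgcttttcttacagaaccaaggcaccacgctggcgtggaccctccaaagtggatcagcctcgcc
Of the 10 windows of these genes, 3 hold the E-box, the last being the second start of Lgmn; of all 32851 windows in the table, 7.15% do, and 0.974% hold the longer form. Psap and Grn windows hold none. A match describes the letters only. Of 4 genes of the TFEB family, 2 were measured in monocyte/macrophage-like cells, and neither differed 2-fold. Tfe3 had 67.1 CPM in tenotomy and 77.3 CPM in sham, and Mitf 53.4 and 60.6 CPM. Tfeb itself and Tfec did not count as measured, and genes of the USF family were not examined.

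The class was made of different clusters on the 2 sides. The tenotomy cells were spread over 6 clusters, while 226 of the 260 sham cells lay in 1 cluster, which carried resident macrophage markers and held 730 tenotomy cells. That cluster is the only one of the class with at least 50 cells in each library. Within it the pattern was close to that of the class. Ctsd had 2368 CPM in tenotomy and 634 CPM in sham (3.73-fold, 3.51 to 3.98), and Ctsl had 1179 CPM and 545 CPM (2.17-fold, 2.02 to 2.32). Lgmn was 1.95-fold, Psap 1.89-fold, Grn 1.85-fold and Ctss 1.61-fold higher in tenotomy, and Ctsb had 4912 CPM in tenotomy and 3270 CPM in sham, all with intervals of the fold above 1. Cst3 had 1967 CPM in tenotomy and 4950 CPM in sham, a fold of 0.397 (0.386 to 0.409). Thus 2 genes were at least 2-fold higher, beside 7.45% of 3237 measured genes, and 1 was at least 2-fold lower, beside 6.24%. The sham level of Cst3 in this cluster was above that of mesenchymal progenitor-like cells of the same library (2684 CPM).

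**Figure D2:**
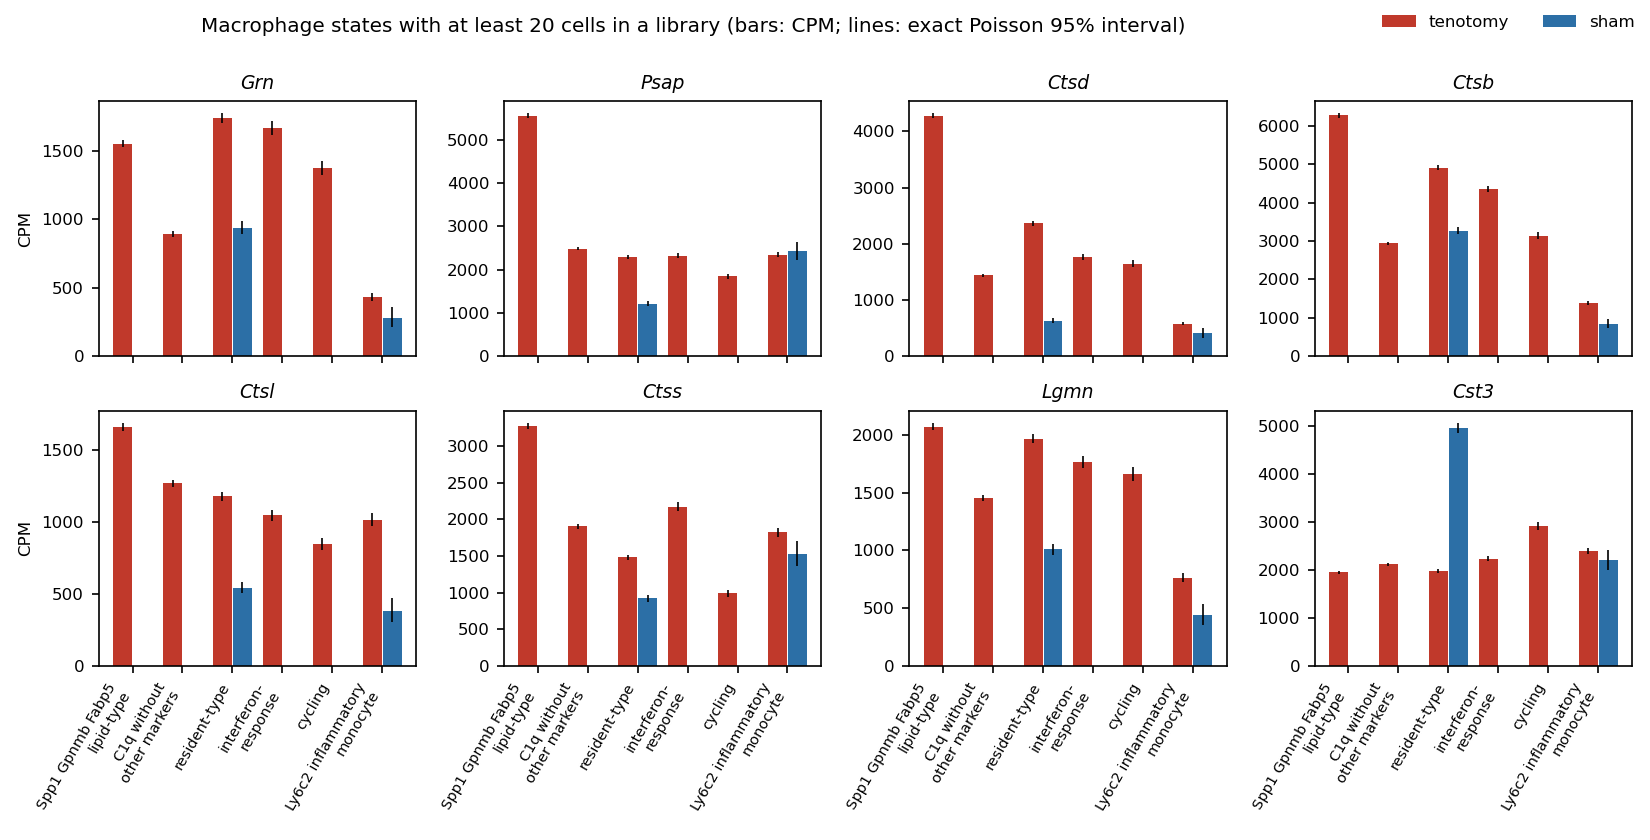
CPM (vertical axis, from 0) of 8 genes in the clusters of monocyte/macrophage-like cells with at least 20 cells in a library, tenotomy left of sham, with exact Poisson 95% intervals. The lipid-type cluster stands highest for Psap (5562 CPM) and Ctsd (4275 CPM), and the resident-type cluster is the one where Cst3 is higher in sham (4950 CPM) than in tenotomy (1967 CPM).

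Among the tenotomy clusters, the 1182 cells marked by Spp1, Gpnmb and Fabp5, genes of lipid-laden macrophages, stood highest for 6 of the 8 measured genes. They had 6267 CPM of Ctsb, 5562 CPM of Psap, 4275 CPM of Ctsd, 3274 CPM of Ctss, 2074 CPM of Lgmn and 1663 CPM of Ctsl. Grn followed another order: it was highest in the resident-type cluster (1738 CPM, 1702 to 1775) and the interferon-response cluster (1667 CPM, 1618 to 1717), whose intervals overlap, and 1554 CPM in the lipid-type cluster. The Ly6c2 inflammatory monocyte cluster of 407 cells was lowest for Grn (430 CPM), Ctsb (1376 CPM), Ctsd (581 CPM) and Lgmn (765 CPM). Psap was not low there, at 2351 CPM, and neither was Ctss, at 1822 CPM. The largest tenotomy cluster, 1343 cells led by H2-Eb1, Il1b and Tnip3, scored highest for C1q markers and close behind for those of the lipid-type cluster. It had 2943 CPM of Ctsb, 2484 CPM of Psap, 1442 CPM of Ctsd and 896 CPM of Grn. The 172 cycling cells had the lowest Psap (1848 CPM), Ctsl (848 CPM) and Ctss (989 CPM), and the highest Cst3 (2913 CPM).

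In the same Ly6c2 cluster the sham library held 21 cells, too few for a fold by the limit set here. Their levels were nearer to the tenotomy ones than in the resident-type cluster for Psap, with 2351 CPM in tenotomy and 2424 CPM in sham, and for Cst3, with 2389 and 2200 CPM. In both pairs the intervals overlap. Ctsl differed more, with 1019 CPM (976 to 1063) in tenotomy and 382 CPM (303 to 475) in sham.

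Because Ctsb, Ctsl, Ctss and Ctsk are the targets of cystatin C, their summed UMIs were set against those of Cst3. In monocyte/macrophage-like cells the ratio was 3.69 (3.66 to 3.73) in tenotomy and 0.898 (0.872 to 0.924) in sham. In the resident-type cluster it was 3.85 in tenotomy and 0.958 in sham, and it reached 5.75 in the lipid-type cluster. The Ly6c2 cluster had 1.77 (1.70 to 1.83) in tenotomy and 1.25 (1.11 to 1.42) in sham. The ratio was also higher in tenotomy in mesenchymal progenitor-like (1.36 and 0.620), tenocyte-like (0.806 and 0.321), blood endothelial cell-like (1.18 and 0.520) and mural cells, named pericyte or smooth muscle-like (1.19 and 0.456). It was lower in tenotomy in muscle stem cell-like cells, at 2.58 (2.47 to 2.70) against 3.55 (3.29 to 3.83) in sham. Dendritic cell-like cells had 0.212 in tenotomy and 0.221 in sham, with overlapping intervals. These are ratios of transcripts, not of proteins.

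**Figure D3:**
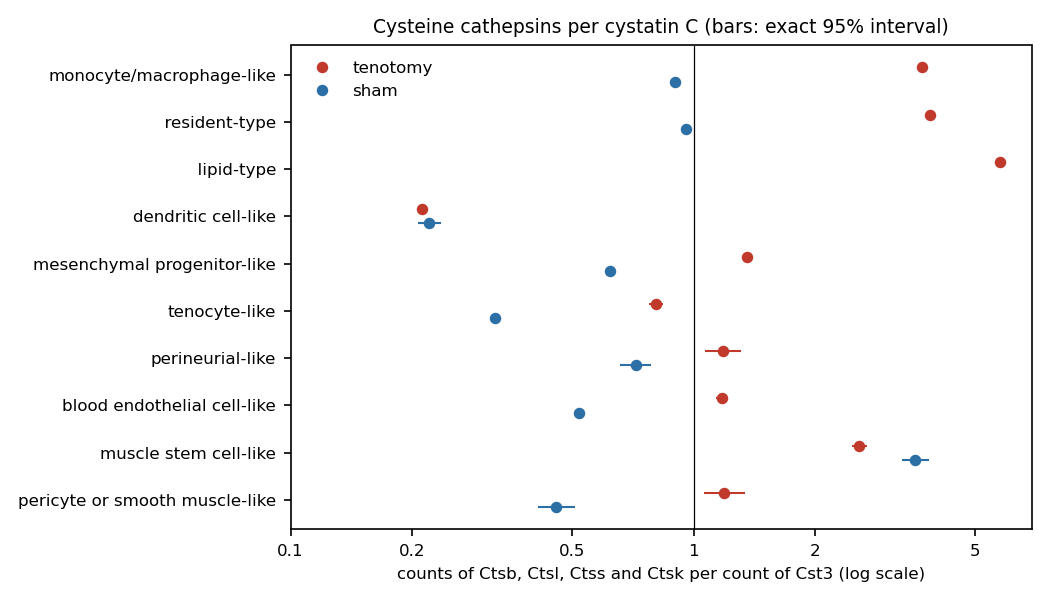
Summed UMIs of Ctsb, Ctsl, Ctss and Ctsk per UMI of Cst3 (horizontal log axis) by cell class and for 2 macrophage clusters, tenotomy above sham, with exact 95% intervals. The ratio is 3.69 in tenotomy and 0.898 in sham monocyte/macrophage-like cells, and the order is turned round in muscle stem cell-like cells.

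Ctss and Ctsk are neighbours in the genome, and their transcripts came from different cells. Ctsk lies at 95499256 to 95509362 and Ctss at 95526786 to 95556403 on the plus strand of chromosome 3, 17423 bases apart with no annotated gene between them in GENCODE. Ctss was a transcript of phagocytes: 84.5% of its UMIs in the tenotomy library and 60.5% in the sham library came from monocyte/macrophage-like cells, and dendritic cell-like cells had 1274 CPM in tenotomy and 1026 CPM in sham. Ctsk was a transcript of connective tissue cells: mesenchymal progenitor-like and tenocyte-like cells held 75.5% and 15.3% of its UMIs in tenotomy, and 51.1% and 44.4% in sham. With cells thinned to 1000 UMIs, a Ctss transcript was found in 80.5% of tenotomy and 60.4% of sham monocyte/macrophage-like cells, and in 4.03% of tenotomy and 0 of 501 sham muscle stem cell-like cells. Both windows were searched for GAGGAA, the core of the site of PU.1, a transcription factor of the myeloid lineage. Each holds 2 matches, shown in capitals (GAGGAA or, on the other strand, TTCCTC). Of the 10 windows of the listed genes, 5 hold GAGGAA on either strand, also those of Grn, Cst3 and the first start of Psap. GAGGAA occurs in 28.3% of all windows.
Ctss, chr3:95526536-95526835: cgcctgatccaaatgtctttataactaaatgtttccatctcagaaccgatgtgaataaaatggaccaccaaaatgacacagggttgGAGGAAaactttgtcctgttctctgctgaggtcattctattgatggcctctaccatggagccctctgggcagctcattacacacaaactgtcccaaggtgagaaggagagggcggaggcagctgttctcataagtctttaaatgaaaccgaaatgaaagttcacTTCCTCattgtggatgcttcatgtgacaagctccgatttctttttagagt
Ctsk, chr3:95498960-95499259: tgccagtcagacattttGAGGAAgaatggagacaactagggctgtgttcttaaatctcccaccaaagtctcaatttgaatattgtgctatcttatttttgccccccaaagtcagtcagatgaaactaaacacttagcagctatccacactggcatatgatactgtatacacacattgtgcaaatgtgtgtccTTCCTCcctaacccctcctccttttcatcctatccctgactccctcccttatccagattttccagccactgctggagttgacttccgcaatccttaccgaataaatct

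In the classes where it was highest, Ctsk showed no difference beyond counting error over the whole class. In tenocyte-like cells it had 491 CPM (458 to 526) in tenotomy and 505 CPM (483 to 528) in sham, a fold of 0.971 with an interval from 0.894 to 1.05, though in the tenocyte-like cluster with 194 tenotomy and 200 sham cells it was 1.20-fold higher (1.07 to 1.34). In mesenchymal progenitor-like cells it had 130 CPM (126 to 134) in tenotomy and 135 CPM (130 to 141) in sham, a fold of 0.959 (0.910 to 1.01). Perineurial-like cells, the sheath cells of nerves, were the exception, with 134 CPM from 53 UMIs in tenotomy and 60.6 CPM from 39 UMIs in sham, 2.20-fold higher (1.43 to 3.42).

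Fibro-adipogenic progenitors of muscle fall in the mesenchymal progenitor-like class, in which 8 of the 10 genes were measured. Lgmn was at least 2-fold higher in tenotomy, beside 16.0% of 3571 measured genes, and Cst3 and Ctsl were at least 2-fold lower, beside 16.2%. Cst3 had 831 CPM in tenotomy and 2684 CPM in sham, a fold of 0.310 (0.305 to 0.314). Ctsl had 434 CPM in tenotomy and 963 CPM in sham, a fold of 0.451 (0.441 to 0.462). Psap, at 405 CPM in tenotomy and 774 CPM in sham, was just short of the limit with a fold of 0.523 (0.510 to 0.536). With macrophage RNA subtracted, as described below, Psap had 340 CPM in tenotomy and 763 CPM in sham. That fold of 0.445 is past the limit. Ctsd had 352 CPM in tenotomy and 221 CPM in sham, 1.60-fold higher (1.54 to 1.66). Grn, with 174 CPM in tenotomy and 197 CPM in sham, had a fold of 0.881 (0.844 to 0.921), and Ctsb, with 520 and 562 CPM, one of 0.926 (0.903 to 0.950). Sort1, under the level limit, had 113 UMIs (3.64 CPM) in tenotomy and 255 UMIs (15.4 CPM) in sham.

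The class held different clusters in the 2 libraries. The 1039 cells marked by Postn and Tnc, genes of activated fibroblasts, had 1 counterpart in sham, and carried 591 CPM of Cst3, 351 CPM of Ctsl and 350 CPM of Psap. With a median of 23205.5 UMIs per cell, this cluster weighs heavily in the summed counts. It held 15080 of the 25790 Cst3 UMIs of the tenotomy class. The cluster led by Mmp3, Serpina3n and C4b, with 446 tenotomy and 14 sham cells, held 8779 of them in tenotomy. In the Pi16 universal-type cluster, with 131 tenotomy and 350 sham cells, Ctsl had 788 CPM in tenotomy and 897 CPM in sham, and Cst3 573 and 734 CPM. Psap had 631 CPM there in tenotomy and 645 CPM in sham, with overlapping intervals. In the cluster led by Clu, Gdf10 and Fmo2, with 48 and 372 cells, Cst3 had 4912 CPM in tenotomy and 5882 CPM in sham, while Ctsl had 932 and 1022 CPM with overlapping intervals. In the Smoc2 interstitial cluster, with 39 and 1099 cells, Cst3 had 1543 CPM in tenotomy and 2313 CPM in sham, and Psap 846 and 841 CPM. In the shallow cluster led by Fabp4, Ccl4 and Gal, with 27 and 301 cells and a median of 1179.5 UMIs, Cst3 had 3686 CPM in tenotomy and 5473 CPM in sham. Cst3, Ctsl and Psap were not 2-fold lower in tenotomy in any of the 4 clusters with at least 20 cells on both sides. Of these, 3 had fewer than 50 tenotomy cells. Cst3 was lower in tenotomy in each of the 4, by less than 2-fold.

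**Figure D4:**
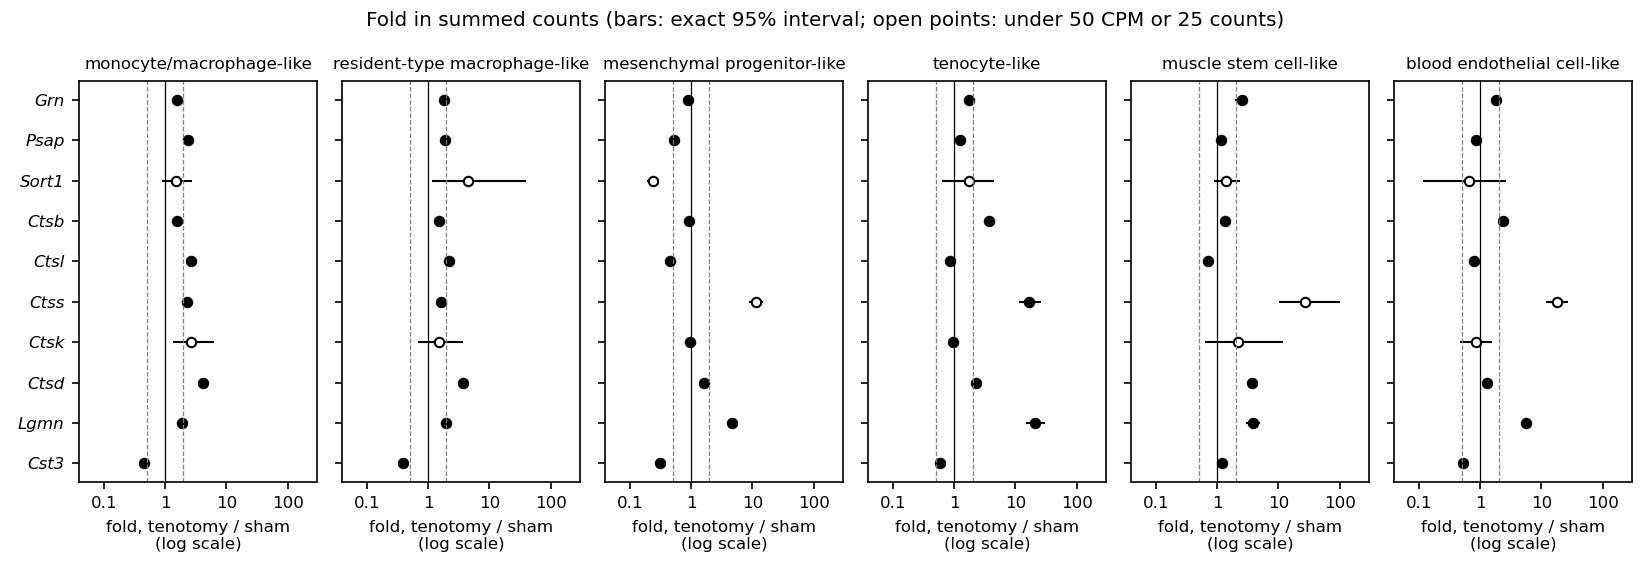
Fold, tenotomy over sham (horizontal log axis), of each gene in 5 cell classes and in the resident-type macrophage cluster, with exact 95% intervals; dashed lines mark 2-fold either way, and open points are genes under 50 CPM or 25 UMIs. Ctsd is to the right of 1 in all 6 panels, from 1.30 to 4.13, while Ctsl lies right of 1 in both macrophage panels (2.69 and 2.17) and left of it in the other 4.

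Lgmn differed by 2-fold in more classes than any other of the 10 genes. It was at least 2-fold higher in tenotomy in 7 of the 8 classes other than myofibre-like cells that could be compared, and 1.92-fold higher in monocyte/macrophage-like cells. Myofibre-like cells, 73 in tenotomy and 54 in sham, met the limit of cells but were left out of the counts by class. Lgmn had 142 CPM in tenotomy and 33.9 CPM in sham there. In mesenchymal progenitor-like cells it had 108 CPM in tenotomy and 23.1 CPM in sham (4.66-fold, 4.19 to 5.20), and in blood endothelial cell-like cells 110 and 19.6 CPM (5.61-fold, 4.83 to 6.54). In tenocyte-like cells it had 198 CPM in tenotomy and 9.59 CPM in sham (20.7-fold, 14.7 to 29.9). Within the Pi16 cluster it had 88.4 CPM in tenotomy and 17.3 CPM in sham, 5.12-fold higher (3.65 to 7.20). In the shallow cluster led by Fabp4, Ccl4 and Gal it had 227 CPM in tenotomy and 190 CPM in sham, with overlapping intervals. Genes of other classes, such as Fabp4, Rgs5, Pf4 and Ckm, were among the leading genes of that cluster. The part of foreign RNA in its Lgmn level was not tested.

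Transcripts of macrophages were present in these other classes, and more so in tenotomy. Over 10 macrophage genes such as C1qa, Csf1r and Tyrobp, the level in mesenchymal progenitor-like cells was 1.81% to 2.31% of the macrophage level in tenotomy (median 1.96%) and 0.389% to 1.15% in sham (median 0.820%). Their summed level was 369 CPM in tenotomy and 165 CPM in sham. The medians were 5.82% and 0.964% in tenocyte-like, 2.49% and 0.409% in blood endothelial cell-like and 1.83% and 0.323% in muscle stem cell-like cells. Ctss lay within the range of the macrophage genes in each of these 4 classes and in both libraries: in tenotomy at 1.99% in mesenchymal progenitor-like cells, 5.73% in tenocyte-like, 1.94% in blood endothelial cell-like and 1.47% in muscle stem cell-like cells. With macrophage RNA subtracted at the median share, Ctss was at 0.583 CPM in tenotomy and 0 CPM in sham in mesenchymal progenitor-like cells, and at 0 CPM in both libraries in the other 3 classes.

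Lgmn stood above that range in tenotomy, at 6.23% in mesenchymal progenitor-like, 11.5% in tenocyte-like, 6.39% in blood endothelial cell-like and 4.38% in muscle stem cell-like cells. With macrophage RNA subtracted at the median share, Lgmn was 73.6 CPM in tenotomy and 15.7 CPM in sham in mesenchymal progenitor-like cells, and 67.3 and 16.0 CPM in blood endothelial cell-like cells. In tenocyte-like cells it was 97.8 CPM in tenotomy and 0.942 CPM in sham after subtraction. The other measured genes lay further above: Ctsb at 12.0%, Grn at 13.2% and Ctsd at 14.4% of the macrophage level in tenotomy mesenchymal progenitor-like cells.

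**Figure D5:**
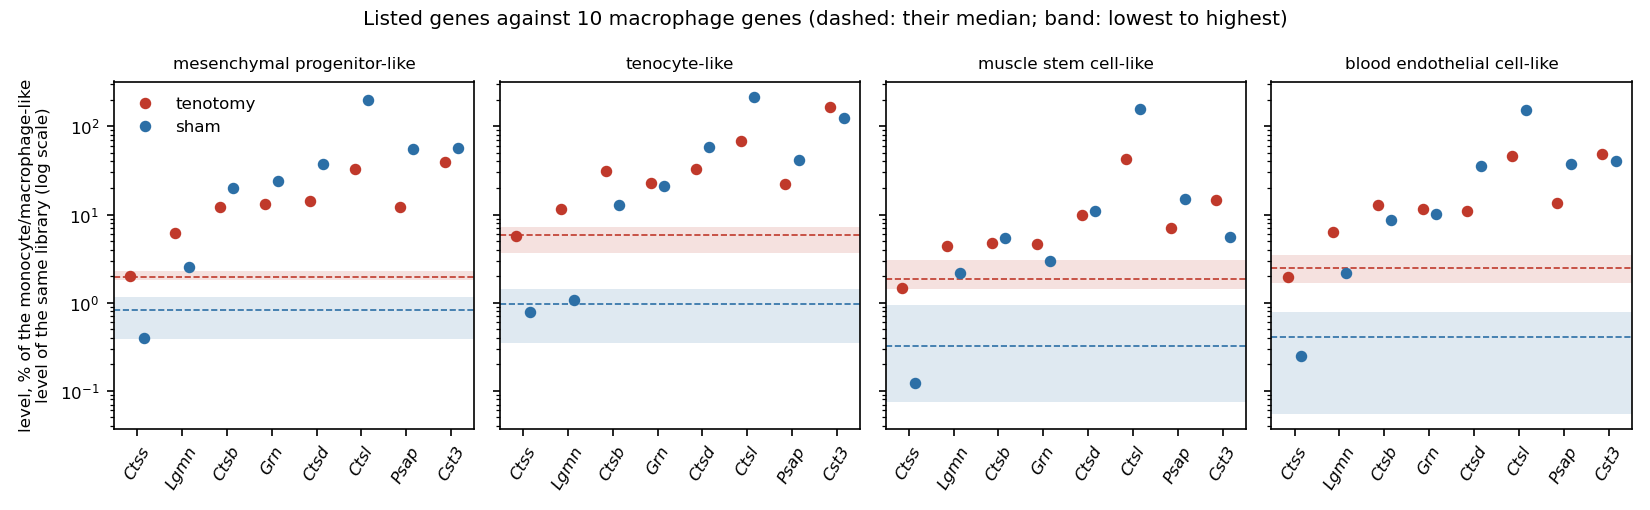
Level of 8 genes in 4 classes as a percent of the macrophage level in the same library (vertical log axis), tenotomy left of sham; dashed lines are the median and bands the range of 10 macrophage genes. Ctss falls in the band of its library in all 4 classes, and Lgmn lies above the tenotomy band in each.

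Tenocyte-like cells had 9 measured genes. Ctsb, Ctsd, Ctss and Lgmn were at least 2-fold higher in tenotomy, beside 6.22% of 3118 genes, and none was 2-fold lower, beside 6.45%. Ctsb had 1358 CPM (1303 to 1415) in tenotomy and 360 CPM (341 to 379) in sham, 3.78-fold higher (3.53 to 4.04), and after subtraction of macrophage RNA 1106 and 333 CPM. Ctsd had 804 CPM in tenotomy and 349 CPM in sham, 2.30-fold higher (2.13 to 2.48), and less than 2-fold higher after subtraction, at 662 and 344 CPM. Cst3 had 3558 CPM in tenotomy and 5950 CPM in sham, a fold of 0.598 (0.581 to 0.615). The class held 2 clusters, and the one led by Angptl7, Wif1 and Chad had 13 tenotomy and 182 sham cells. In the other, with 194 tenotomy and 200 sham cells, Ctsd was 1.55-fold higher (1.42 to 1.69) and Cst3, at 3422 CPM in tenotomy and 7439 CPM in sham, was more than 2-fold lower, with a fold of 0.460 (0.445 to 0.475). Ctsb was 3.76-fold and Lgmn 15.5-fold higher there.

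In muscle stem cell-like cells Ctsd, Lgmn and Grn were at least 2-fold higher of 7 measured genes, beside 28.5% of 3495 genes in this class, and none was 2-fold lower, beside 17.2%. Ctsd had 241 CPM in tenotomy and 64.7 CPM in sham, 3.72-fold higher (3.23 to 4.30). Grn, at 61.3 CPM (56.2 to 66.8) in tenotomy and 24.3 CPM (19.3 to 30.2) in sham, was 2.53-fold higher, and it had 37.3 and 21.6 CPM after macrophage RNA was subtracted. Ctsl, the most abundant of the proteases in these cells, had 558 CPM in tenotomy and 770 CPM in sham, a fold of 0.725 (0.691 to 0.760). After subtraction Lgmn had 44.0 CPM in tenotomy, under the level limit, against 16.6 CPM in sham. The class was made of different clusters: those led by Myog and by Cdh15 and Top2a held 264 and 161 tenotomy cells against 3 and 1 sham cells. In the remaining cluster, with 72 tenotomy and 497 sham cells, Ctsd was 2.35-fold higher (1.65 to 3.27), and Ctsl, at 709 CPM in tenotomy and 779 CPM in sham, had an interval that spans 1 (0.784 to 1.05). Lgmn and Grn had too few UMIs to count as measured there, Lgmn with a fold of 1.84 (0.841 to 3.60).

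In blood endothelial cell-like cells Lgmn and Ctsb were at least 2-fold higher of 7 measured genes, beside 6.53% of 3448 genes, and none was 2-fold lower, beside 6.64%. Ctsb had 560 CPM in tenotomy and 241 CPM in sham, 2.33-fold higher (2.21 to 2.45); after subtraction of macrophage RNA it had 453 CPM in tenotomy and 229 CPM in sham, 1.97-fold higher. Cst3 had 1027 CPM and 1920 CPM, a fold of 0.535 (0.520 to 0.550). Here too the clusters differed by library, the largest having 85 tenotomy and 2326 sham cells and the next 1025 and 84. Over the 5 clusters with at least 50 cells in each library, the fold of Cst3 ran from 0.289 to 0.914, and in the largest its interval spans 1 (0.816 to 1.02). Ctsb was 1.70-fold to 2.89-fold higher in these clusters. Lgmn was 4.04-fold to 5.96-fold higher in 4 of them, and in the largest it had 19.3 CPM in tenotomy and 15.6 CPM in sham, under the level limit. In pericyte or smooth muscle-like cells Ctss, Lgmn, Ctsb and Grn were at least 2-fold higher of 8 measured genes, beside 8.69% of 3545, and none 2-fold lower, beside 9.25%. Ctsb there had 735 CPM in tenotomy and 263 CPM in sham, and Grn, after subtraction, 125 and 68.5 CPM, less than 2-fold. Ctss, at 95.5 CPM in tenotomy and 10.8 CPM in sham, lay within the range of the macrophage genes in tenotomy (4.34% of the macrophage level, in a range of 4.15% to 6.20%). In perineurial-like cells Ctss, Lgmn, Ctsd and Ctsk were at least 2-fold higher of 9 measured genes, beside 6.76% of 3328, and none 2-fold lower, beside 7.36%. Ctsd had 708 CPM in tenotomy and 275 CPM in sham in those cells. Ctss again lay within the range of the macrophage genes in tenotomy, at 9.97% of the macrophage level in a range of 4.16% to 13.9%. It was above their median of 6.07%, and with macrophage RNA subtracted at that share it had 85.8 CPM in tenotomy and 0 CPM in sham. In B cell-like cells Ctsd, Grn, Lgmn, Ctsb and Psap were at least 2-fold higher of 8 measured genes, beside 10.5% of 2824, and none 2-fold lower, beside 4.04%. The sham class held 52 cells and 282885 UMIs, so low sham levels there rest on few counts. Ctsd had 220 CPM in tenotomy and 38.9 CPM in sham, Grn 88.8 and 17.7 CPM, and Lgmn 95.5 and 24.7 CPM. Median depths were 1786 UMIs in tenotomy and 3459.5 UMIs in sham. Ctss, which B cells use to load class II molecules, had 208 CPM in tenotomy and 198 CPM in sham there, with overlapping intervals. The median share of macrophage RNA in B cell-like cells was 3.64% in tenotomy and 0.940% in sham; with it subtracted Ctsb had 136 CPM in tenotomy and 72.6 CPM in sham, less than 2-fold, and Grn and Lgmn were under 50 CPM.

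Sort1 and Cst3 had their highest levels elsewhere. Sort1 stood highest in neutrophil-like cells, with 59 UMIs (64.7 CPM, 49.3 to 83.5) in tenotomy and 17 UMIs (53.9 CPM, 31.4 to 86.2) in sham. Schwann or glial cell-like cells (63.4 and 39.0 CPM) as well as pericyte or smooth muscle-like ones (29.7 and 49.9 CPM) came next, and the intervals of the libraries overlap in each of the 3 classes. Cst3 peaked in dendritic cell-like cells, with 8684 CPM (8606 to 8763) from 690 cells in tenotomy and 7468 CPM (7259 to 7682) from 36 cells in sham. Psap had 1404 CPM in tenotomy and 2184 CPM in sham dendritic cell-like cells, so in sham it stood higher there than in monocyte/macrophage-like cells (1391 CPM). The dendritic cluster led by Fscn1, Ccl5 and Cacnb3, with 47 cells in tenotomy alone, had 12609 CPM of Cst3. Dendritic cell-like, neutrophil-like, Schwann or glial cell-like, and T or natural killer-like cells had fewer than 50 cells in a library, so no fold is given for them, nor for lymphatic endothelial and erythroid cells.

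Over all kept cells, 9 genes were measured and Ctss, Lgmn, Ctsd, Ctsb, Grn and Psap were at least 2-fold higher in tenotomy, beside 13.3% of 3774 genes, with none 2-fold lower, beside 16.7%. These values mix the make-up of the library with levels inside classes. Ctss had 831 CPM in tenotomy and 75.7 CPM in sham. With tenotomy levels held at the sham mix of classes its fold was 2.68, and with sham levels at the tenotomy mix it was 5.05. For Grn (3.08-fold) these were 1.36 and 2.13, and for Ctsb (3.37-fold) 1.56 and 2.31. For Psap (2.15-fold) they were 0.971 and 1.44, so its levels alone gave no increase. Of the genes at least 2-fold higher, only Ctsd had the larger part in levels. Of its 4.23-fold difference, the levels alone gave 2.01 and the mix alone 1.38. Cst3, 0.660-fold over all cells, was 0.487-fold by levels alone and 1.26-fold by the mix alone. Monocyte/macrophage-like cells held 77.4% of all Grn UMIs in tenotomy and 22.2% in sham. Ctsk, 0.603-fold over all cells, was 0.978-fold by levels alone and 0.605-fold by the mix alone.

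Other lysosomal genes in monocyte/macrophage-like cells are read beside the 6.98% of all measured genes that were at least 2-fold higher. Where no gene of a list did, the examples given were chosen after their values were seen. Of 18 genes of the lysosome membrane and its proton pump, 16 were measured and none differed 2-fold, Lamp1 with 1328 CPM in tenotomy and 893 CPM in sham and Atp6v0d1, a proton pump subunit, with 194 and 99.3 CPM. Of 16 other hydrolases 13 were measured and 3 were at least 2-fold higher: Acp5 (2.51-fold), Gusb (2.27-fold) and Lipa, the acid lipase (2.16-fold, 356 CPM in tenotomy and 165 CPM in sham). None of the 4 measured other cathepsins differed 2-fold, Ctsz with 1030 CPM in tenotomy and 547 CPM in sham, nor did the 3 measured other inhibitors. Of 17 receptor and processing genes 5 were measured and 2 were higher: Tnfrsf1b, a receptor reported to bind progranulin, with 283 CPM in tenotomy and 103 CPM in sham, and Mmp14, a surface protease that cuts it, with 81.8 and 1.91 CPM. The 6 measured class II genes, the path in which cathepsin S acts, were lower without reaching 2-fold, Cd74 with 5140 CPM in tenotomy and 9122 CPM in sham.

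In mesenchymal progenitor-like cells some sorting and uptake receptors were at least 2-fold lower in tenotomy, beside 16.2% of all measured genes lower and 16.0% higher. Sorl1, a relative of sortilin, had 3.61 CPM in tenotomy and 60.8 CPM in sham, Lrp1, an uptake receptor for prosaposin, 404 and 885 CPM, and Tmem106b, a lysosomal membrane protein, 38.6 and 85.1 CPM; they were 3 of 6 measured genes of their list and none was higher. Among the other cathepsins, Ctsf (11.1 CPM in tenotomy and 66.2 CPM in sham) and Ctso (16.5 and 50.3 CPM) were at least 2-fold lower and Ctsh (262 and 117 CPM) higher, of 5 measured. Serpinb1a was higher and Serping1 lower among 4 measured inhibitors. Of other hydrolases Ids and Gaa were lower and Lyz2 higher of 6. Atp6v0d1 alone was higher of 13 measured membrane genes. All 4 measured class II genes were higher, Cd74 with 155 CPM in tenotomy and 39.9 CPM in sham; macrophage RNA in this class is given above and its part was not tested.

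The likeness of patterns was taken as Pearson's r of log2(CPM + 10) over 23 profiles, each a class in a library with at least 50 cells; the profiles share libraries and classes, so r is a description. Grn and Psap were most like each other of 7926 genes (r = 0.93), followed for Grn by Ctsb (0.90) and Tmem106a (0.89). Psap was next most like Lipa and Tmem106a (0.86 each), Ctsb most like Grn, Tmem106a and Rab7b (0.87), and Ctsd like Ctsb (0.84), Grn (0.83) and Trem2 (0.77). Lgmn followed Ms4a7 (0.91), Trem2 (0.90) and Ms4a6d (0.90). Ctss followed Bcl2a1b (0.94), Slfn2 (0.93) and Wfdc17 (0.93). Ctsk followed the matrix gene Mfap2 (0.97), Igsf10 (0.97) and Scarf2 (0.96), and Ctsl followed Slc39a1 (0.90), Slc35f5 (0.89) and Mib1 (0.88). Sort1 was most like G0s2 (0.90), Lims1 and Il1rap (0.78 each), and Cst3 had the weakest partners, Itm2c (0.76), Ppfibp2 (0.73) and Ckb (0.72). Between the neighbours Ctss and Ctsk r was -0.25.

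Several of the 10 genes overlap other annotated genes. The files hold Fdft1, on the strand opposite Ctsb, with 5.50 CPM in tenotomy and 4.77 CPM in sham monocyte/macrophage-like cells, Fam171a2, opposite Grn, with 0.141 and 0.955 CPM, and the antisense gene Gm47123 of Ctsl with 3.21 and 2.39 CPM. The sources used here do not say whether counting used strand, so reads of such pairs may not be told apart. Genes annotated on the same strand, Gm49369 over Ctsd, Hmgb1-ps5 over Ctss and Gm49230 over Ctsl, were not found by symbol in the count tables. Their share of the reads cannot be bounded. Neutrophil genes, of which S100a8 and S100a9 were the 2 measured of 5, were higher in tenotomy monocyte/macrophage-like cells, S100a8 with 56.8 CPM against 12.4 CPM in sham, and their part in the results was not tested.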

How the data were processed

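Per the submitters' processing notes, reads were processed with Cell Ranger 4.0.0 against mm10. The authors deposited raw UMI counts per gene and cell barcode, 1 table per library, with 11950 tenotomy and 8463 sham barcodes and 94556283 and 47781353 UMIs. The libraries share 33 barcodes. From these counts, cells with at least 300 genes, 500 UMIs and at most 10% mitochondrial UMIs were kept. Doublets were called with Scrublet in Scanpy 1.11.5 at 1 score limit, taken from the tenotomy library because the automatic limit marked 1 sham cell; 320 tenotomy and 190 sham cells were removed. Both libraries were clustered together (Leiden, leidenalg 0.10.2, resolution 1, 30 components, 15 neighbours) without the 10 genes. Of 49 clusters 14 stayed unnamed (884 tenotomy and 396 sham cells), and the naming limits were set after cluster scores were seen, so class borders rest on rebuilt names. CPM is UMIs of a gene per 1000000 UMIs of a class, with exact Poisson intervals; folds carry exact conditional binomial intervals and shares Clopper-Pearson ones (SciPy 1.17.1), given for classes or clusters with at least 50 cells per library. Intervals cover counting error only. Pathway genes were named when at least 2-fold different, up to 4 each way per list by the interval bound nearest 1. The calculations were tested on simulated data. The 10 genes and all lists were chosen with earlier results of these data known. Gene positions are from GENCODE and promoter windows from RefSeq GRCm38.p6; all 10 gene identifiers matched. Results for the list of sphingolipid enzymes are not reported here.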

Additional observations from a re-analysis of the deposited data

Results flagged for a closer look

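Ctsl differed in opposite directions in the 2 largest non-endothelial classes. Its fold, tenotomy over sham, was 2.69 in monocyte/macrophage-like cells and 0.451 in mesenchymal progenitor-like cells; with 1 library per group the difference between these folds was not tested. The first held within the resident-type cluster, at 2.17-fold (2.02 to 2.32). The second was smaller within the Pi16 cluster, at 0.878-fold (0.810 to 0.952), and the class held different clusters in the 2 libraries.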

How the results depend on the processing

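No paired analysis was possible because each group has 1 library. Of 224 counts of genes past 2-fold under 17 alternatives, 197 stayed within 1.5 times. Counts of 0 that stayed at 0 are among these 197. Of 396 folds of single genes under the alternatives, 254 stayed within the counting interval of the main fold. No fold of a gene past 2-fold changed direction. Smaller folds did: in mesenchymal progenitor-like cells those of Grn (0.777 to 1.15), Ctsb (0.808 to 1.21) and Ctsk (0.896 to 1.19) were above 1 with mean CPM per cell, thinned cells or cells in cycle left out. In muscle stem cell-like cells those of Psap (0.866 to 1.54) and Ctsb (0.894 to 1.73) were below 1 after subtraction of macrophage RNA, and that of Psap also when divided by the median fold. Folds were recomputed gene by gene in these classes and in monocyte/macrophage-like and blood endothelial cell-like cells. In monocyte/macrophage-like cells, 4 genes were higher and 1 lower; a 1.5-fold limit gave 7 higher, a 3-fold limit 1 higher and 0 lower, and the resident-type cluster alone 2 higher. In mesenchymal progenitor-like cells, 1 higher became 2 without doublet removal, without the filter on low values or at 1.5-fold. There 2 lower became 1 with mean CPM per cell, thinned cells, cells in cycle left out or 3-fold. Psap joined the lower genes of that class, with a fold of 0.445, when macrophage RNA was subtracted. Subtracting macrophage RNA left 2 of 4 higher in tenocyte-like, 1 of 3 in muscle stem cell-like, 1 of 2 in endothelial, 2 of 4 in pericyte or smooth muscle-like and 2 of 5 in B cell-like cells. At 1.5-fold, 1 gene was lower in tenocyte-like and 1 in endothelial cells. Without the filter 5 were higher in muscle stem cell-like cells. At 3-fold, 1 was higher in endothelial, 2 in pericyte and 3 in B cell-like cells. Pericyte counts were 2 without doublet removal and 2 thinned, with 1 lower at a 20% mitochondrial limit. B cell-like counts were 2 thinned and 2 with libraries clustered apart. Leaving out the shallow mesenchymal cluster, the one led by Fabp4, Ccl4 and Gal, and using the resident-type cluster alone were chosen after seeing the data. The cause of each change was not tested. Counts of perineurial-like cells were not recomputed under the alternatives. Dendritic cell-like, neutrophil-like, Schwann and T cell-like cells, under 50 cells in a library, gave no count, and Sort1 was too scarce in most classes for a difference to be detectable.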
